A study of Homo sapiens with 15 samples.

Results

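The 2 groups of libraries labelled WT in this study, EV and CTRL, were set side by side: 6 of the 15 libraries of the series, 3 in each group, chosen by the group names in their titles. All are labelled MDA-MB231, an established line from a human breast cancer of the triple-negative kind, grown in DMEM with fetal bovine serum, and RNA was extracted with an RNeasy kit. EV accompanies 3 libraries labelled KIF20A_OE (KIF20A overexpression) and CTRL accompanies 3 SG1 and 3 SG3 libraries (KIF20A knockdown). What EV, CTRL, SG1 and SG3 stand for is not given in the labels, and neither is whether a group's libraries came from separate cultures, so the spread between them may be technical. EV was deposited as fragments per 1000000 (FPM) and CTRL as raw counts, in tables processed separately. Group and dataset therefore cannot be told apart, no test was run between them, and each difference below is a description. The 22834 gene IDs present in both tables were used, and each library was rescaled to 1000000 over them (CPM below).

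MDA-MB231 is a line of mesenchymal appearance that lacks the estrogen and progesterone receptors and has little ERBB2. It is known for strong integrin, matrix protease and cytoskeletal gene expression, for a loss of the CDKN2A region of chromosome 9, and for secreting cytokines under the control of NF-kB, a transcription factor family that its own inhibitors and feedback genes restrain.

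The EV libraries held 17007632 to 21004868 fragments and the CTRL libraries 44545828 to 50180783 counts, of which 95.1 to 95.2% and 92.0 to 94.2% fell in the shared genes. Of CTRL values from 10 to 50 counts, 62.9 to 68.0% were even numbers. Whether a count stands for a read or a fragment was not tested, so depths and floors may differ in unit between the groups. For genes without counts, 3 counts set the upper limit, which was 0.150 to 0.186 CPM in EV and 0.0635 to 0.0732 in CTRL, which covers counting error only. Genes with a mean of at least 1 CPM over the 6 libraries were kept, 12873 in all. A gene was called higher in a group when the means of log2(CPM + 1) differed by at least 1, which is 2-fold, and no library of one group overlapped the other. For a called gene, groups that do not overlap are part of this rule, and where stated below they add no support. Fold changes on this scale understate the change of low genes.

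Both groups carried the markers of the line. VIM, the intermediate filament vimentin, stood at 2877, 2841 and 2651 CPM in EV and 617, 726 and 838 in CTRL. AXL, a receptor tyrosine kinase of mesenchymal cells, stood at 1018, 1162 and 854 CPM in EV and 1718, 2023 and 1759 in CTRL, and CD44, the hyaluronan receptor, at 829, 646 and 550.2 CPM in EV and 1619, 1586 and 1316 in CTRL. The hormone receptor genes were at the bottom of the scale in both: ESR1 had 2 fragments in all EV libraries and no count in CTRL, and PGR had none in either. CDH1, the epithelial cadherin, was at 0 to 0.742 CPM in EV and 1.24 to 1.92 in CTRL, and KRT14 at 0.508 to 3.15 in EV and 0 in CTRL. ERBB2 and EPCAM, on the marker list as low, were not at the bottom of the scale. ERBB2 was at 82.9, 65 and 76 CPM in EV and 138, 147 and 97.8 in CTRL, and EPCAM at 31.1, 18.1 and 35.4 CPM in EV and 17.8, 19.7 and 23.2 in CTRL. SPARC did not match its place on the marker list in CTRL, where it was at 0.317 to 1.12 CPM, against 6.6 to 38.8 in EV.

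A block of genes on chromosome 9p21 was silent in both groups. CDKN2A, which encodes the cell cycle inhibitors p16 and p14ARF, CDKN2B, MTAP, DMRTA1 and CDKN2B-AS1 had no fragment or count in any of the 6 libraries. KLHL9, in the same region, had 15 fragments in the EV libraries together and no count in CTRL. The libraries labelled KIF20A_OE stood apart from both groups here: CDKN2A was at 289 to 370 CPM, MTAP at 23.7 to 25.8 and KLHL9 at 149.8 to 165, while AXL was at 0.785 to 0.85, CD44 at 0.131 to 1.29 and S100A6 at 0.617 to 1.91. Values from those libraries below show what the same table holds and do not serve as a repeat of EV.

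**Figure D1:**
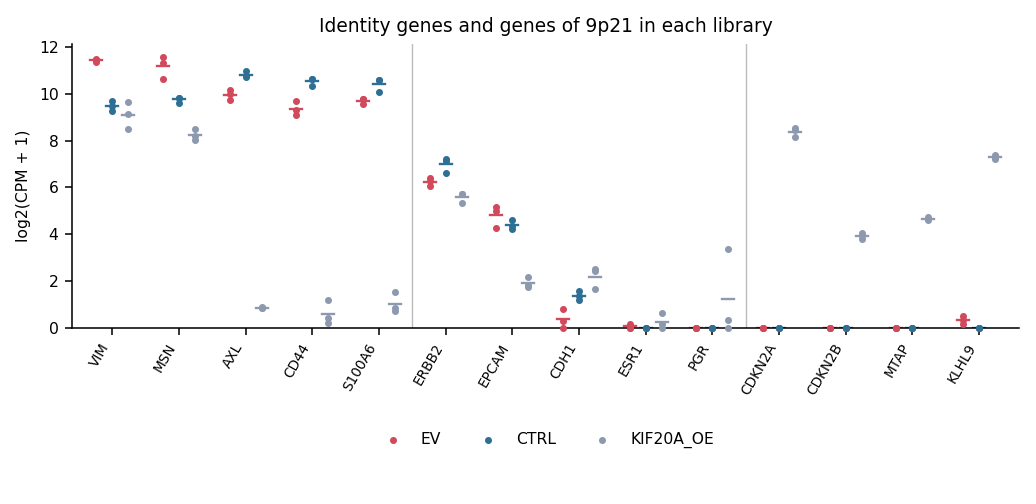
Level of identity genes and 9p21 genes in each EV, CTRL and KIF20A_OE library, as log2(CPM + 1); points are libraries and bars are group means. EV and CTRL both hold AXL, CD44 and S100A6 and lack CDKN2A, CDKN2B and MTAP, and the KIF20A_OE libraries show the opposite for these 6 genes.

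Markers of other cell types were sparse, with one exception. Of 7 leukocyte markers in the shared set, 3 passed the filter, and PTPRC was at most 0.701 CPM in any library. The leukocyte list summed to 9.49 to 16.3 CPM in EV and 14.8 to 25.6 in CTRL, and the fibroblast list to 30.2 to 108 in EV and 52.8 to 64.2 in CTRL. Endothelial markers summed to 275 to 426 in EV against 20.6 to 34.7 in CTRL, and 5 of the 6 kept were called higher in EV. ESAM, a junction adhesion molecule, stood at 219.7, 179 and 262 CPM in EV and 22.3, 29.1 and 16.4 in CTRL, and the receptor TIE1 at 69.6, 67.6 and 85.2 CPM in EV and 0.0488, 0 and 0 in CTRL. Of their companions, CDH5 was at 3.28 to 7.26 and VWF at 0.152 to 0.495 CPM in EV. CDH5, ENG and PECAM1 were also called for EV, with differences of 2.53, 3.23 and 2.14 in log2. In bulk RNA, a few cells of another type and a low level in all cells cannot be told apart.

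KIF20A, the kinesin of the central spindle that the study manipulated (ENSG00000112984.12, chromosome 5, 138178719 to 138187715, plus strand, GRCh38), stood at 106, 150.0 and 130.1 CPM in EV and 170.1, 182 and 164 in CTRL. EV lay below CTRL in every library, with a difference of -0.43 in log2, short of the call. For scale, the mean was 879 in KIF20A_OE and 105 in SG1 and SG3 together.

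Across the 12873 genes, libraries resembled their own group more than the other. Pearson's r of log2 values was 0.966 to 0.972 within EV, 0.984 to 0.993 within CTRL and 0.843 to 0.857 between them, across genes that share a library and its depth. It was 0.719 to 0.756 between EV and KIF20A_OE, so EV lay closer to CTRL from the other table than to KIF20A_OE from its own. The median gene differed by 0.530 to 0.646 in log2 between an EV and a CTRL library and by 0.147 to 0.278 between libraries of 1 group. Of all genes, 72.9% lay within 2-fold between the group means and 52.9% within 1.5-fold.

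In EV, 2193 genes were higher, 17.0% of those kept, and in CTRL 1196, 9.29%; 26.3% were called either way. A further 96 genes differed by over 2-fold but overlapped. The median difference was 0.14 in EV's favour, and gene groups below are read against it. Counts of called members are read against the shares of 17.0% and 9.29%, and a count near them sets no list apart. With median-of-ratios scaling that median became -0.05 and the counts 1756 and 1546, so that the share of calls on the EV side went from 64.7% to 53.2%. The size of the EV excess thus moved with the scale chosen. Leaving out 1 library at a time gave 2046 to 2428 and 1174 to 1341 calls.

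**Figure D2:**
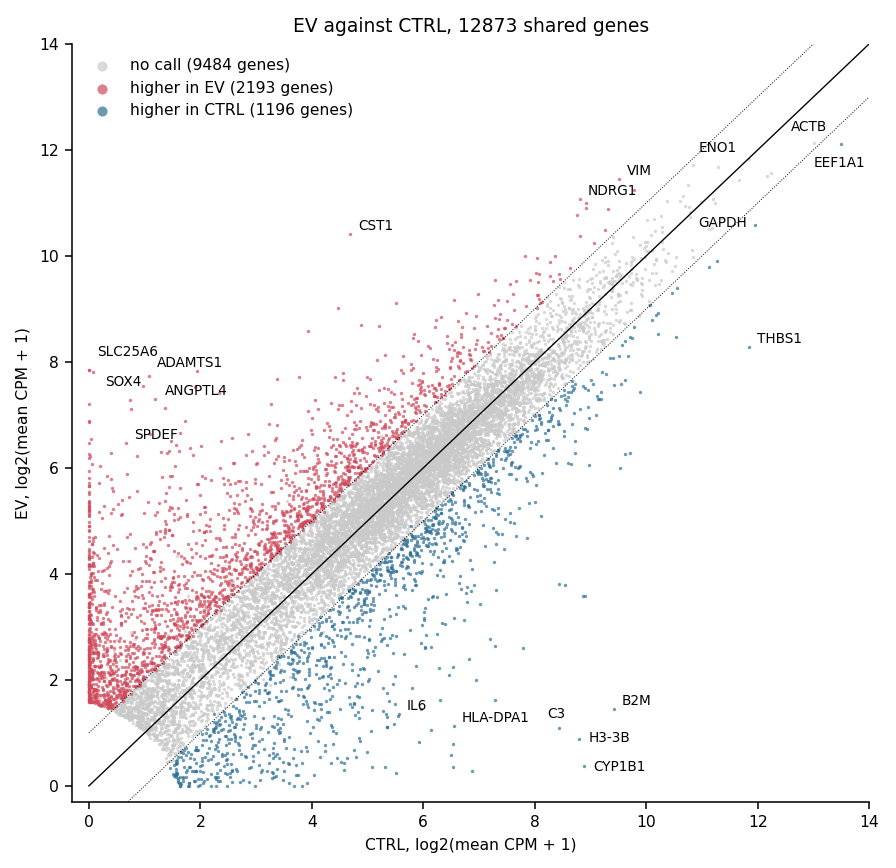
Mean level of 12873 shared genes in CTRL (x axis) and EV (y axis), both as log2(mean CPM + 1), with equality drawn solid and 2-fold dotted. Most genes lie between the dotted lines; 2193 called higher in EV are red and 1196 called higher in CTRL are blue.

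The shared programme was one of cytoskeleton, protein synthesis and glycolysis. Ranked per exon length (TPM over the shared genes, a CPM divided by exon length and rescaled), 69 of the top 100 genes of EV were also in the top 100 of CTRL, 69% of each list, and 33 of the top 50. The top 100 of each group held 18.4% of its total in EV and 20.5% in CTRL. Among the 100 genes of highest mean over both, 86 had no call, 9 were higher in EV and 5 in CTRL, against 26.3% called over all genes. Genes over 100 CPM were called for EV in 7.95% of cases and for CTRL in 7.6%. The top 100 were thus close to other abundant genes in this respect. They included 23 ribosomal protein genes, 10 of the actin and tubulin cytoskeleton list, 7 of glycolysis and 6 annexin and S100 genes.

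Beta-actin, ACTB, had the highest mean over the 6 libraries, at 5441 ± 374 TPM in EV and 10393 ± 545 in CTRL, and ranked 4 in EV, behind TMSB10, CST1 and HMGA1, and 2 in CTRL, behind FTL. The gamma-actin gene, ACTG1, reached 4292 ± 262 TPM in EV and 7125 ± 634 in CTRL. TMSB10, which binds actin monomers, reached 8265 ± 634 TPM in EV and 5627 ± 1524 in CTRL. The actin genes were higher in every CTRL library without reaching 2-fold, and TMSB10 was higher in every EV library, also short of it. Among abundant glycolytic enzymes, ENO1 and GAPDH lay close together. Enolase, ENO1, stood at 3614 ± 454 CPM in EV and 3679 ± 71.3 in CTRL (SD, n = 3 each, as below), and GAPDH at 1823 ± 147 CPM in EV and 1772 ± 9.9 in CTRL, with differences of -0.03 and 0.04 in log2. LDHA, lactate dehydrogenase, reached 2249 ± 266 CPM in EV and 1615 ± 92.8 in CTRL, and was higher in every EV library without a call. PGAM1 reached 714 ± 53.7 CPM in EV and 647 ± 39.8 in CTRL, with overlap between the groups. S100A11, a calcium-binding protein, stood at 365 ± 50 CPM in EV and 383 ± 38.5 in CTRL and ITGB1, the beta chain of many matrix receptors, at 1693 ± 139 CPM in EV and 1770.0 ± 317 in CTRL; the groups overlapped for both.

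Ribosomal protein genes moved little as a group. Of 77 kept, 2 were higher in EV and 4 in CTRL, with a median difference of -0.07. RPL13A, of the large subunit, stood at 1266, 1322 and 1097 CPM in EV and 1183, 1284 and 1284 in CTRL. The exceptions stood far from their neighbours. RPS23 was at 618, 632 and 601 CPM in EV and 124, 121 and 133 in CTRL, and RPL26 at 0.952, 2.39 and 1.05 CPM in EV and 20.2, 18.9 and 11.8 in CTRL. The family has many pseudogenes, and no source used here says how shared reads were assigned, so single members are uncertain. Nuclear genes of oxidative phosphorylation (45 kept, 2 and 2 called, median -0.05) and unfolded protein response genes (18 kept, 0 in EV and 2 in CTRL, median -0.20, from -0.40 to -0.08 over the alternatives) were also close to level.

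Of the 25 genes at the top, 3 were called for CTRL: the elongation factor EEF1A1, the ferritin light chain FTL and TMSB4X, which like its paralog TMSB10 binds actin monomers. EEF1A1 stood at 4612, 4437 and 4220.1 CPM in EV and 9942, 11654 and 12897 in CTRL, and FTL, which stores iron, at 1034, 887 and 722 CPM in EV and 2008, 2226 and 2448 in CTRL. TMSB4X stood at 922, 836 and 1129.8 CPM in EV and 2005, 2388 and 3003 in CTRL. All 3 were higher in every CTRL library, by -1.37, -1.35 and -1.35 in log2 for EV against CTRL. The pyruvate kinase gene PKM, lower in the ranking, was also called for CTRL, at 1533, 1493 and 1553 CPM in EV and 4049, 4201 and 3588 in CTRL. Of the tubulins, TUBB, TUBA1A and TUBA1B were higher in EV and TUBB2A in CTRL, with TUBB at 2148, 1884 and 2065 CPM in EV and 479, 586 and 384 in CTRL and TUBA1B at 1071, 1558 and 1367 CPM in EV and 441, 457 and 440.0 in CTRL, while TUBB4B, at 520.4, 693 and 654 CPM in EV and 885, 1071 and 926 in CTRL, was not called. TUBB2A stood at 28, 15.7 and 31.1 CPM in EV and 73.5, 68.8 and 47 in CTRL. Among tropomyosins, TPM1 and TPM3 were higher in CTRL, with differences of -4.07 and -1.95 in log2. TPM3 stood at 192, 213 and 200.5 CPM in EV and 742, 714 and 901 in CTRL, and TPM4, without a call, at 1599.8, 1477 and 1879 CPM in EV and 998, 1248 and 1116 in CTRL.

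Sterol synthesis genes had a median on the EV side. Cholesterol is built from acetyl-CoA through HMG-CoA, and the transcription factor SREBP2 (SREBF2) drives the genes when sterols run low. Of 23 members kept, 11 were higher in EV and 1, EBP, in CTRL, with a median of 0.94. HMGCS1, HMG-CoA synthase, stood at 109.9, 185 and 216 CPM in EV and 28.8, 21.5 and 28.2 in CTRL. INSIG1, the feedback inhibitor of SREBP2 processing, stood at 117, 122 and 158 CPM in EV and 37.9, 31.4 and 67.9 in CTRL. Every EV library lay above every CTRL library for both. SREBF2 itself stood at 243, 289 and 306 CPM in EV and 113, 112 and 114 in CTRL.

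In fatty acid synthesis, 3 of 13 were higher in EV and 2 in CTRL, against 17.0% and 9.29% of all genes. The desaturase SCD stood at 580.2, 937 and 682 CPM in EV and 195, 136 and 276 in CTRL, and ELOVL6, which lengthens palmitate, at 67.5, 89.2 and 112 CPM in EV and 249, 257 and 292 in CTRL. FASN overlapped between the groups, at 357, 474 and 428 CPM in EV and 533, 423 and 384 in CTRL.

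Genes induced at low oxygen were higher in EV in 7 of 15 cases and in CTRL in none, with a median of 0.96, or 0.48 when all libraries of each table were used. NDRG1 stood at 2827, 2135 and 1529 CPM in EV and 446, 497 and 396 in CTRL. ADM, the vasodilator adrenomedullin, stood at 255, 90.3 and 98.4 CPM in EV and 18.4, 17.7 and 21.5 in CTRL, and ANGPTL4, an inhibitor of lipoprotein lipase, at 268, 116 and 84.6 CPM in EV and 1.15, 1.51 and 1.19 in CTRL. In all 3, EV replicate 1 was the highest library. VEGFA, the canonical target, was not called, at 714, 278 and 193 CPM in EV and 421, 388 and 212 in CTRL, and PDK1 overlapped between the groups, at 73.5, 55.4 and 51.6 CPM in EV and 59.1, 52.6 and 56.4 in CTRL. Of 21 glycolysis genes, 7 were higher in EV, among them SLC2A3, a glucose transporter, at 184, 166 and 137 CPM in EV and 20.8, 38.8 and 31.6 in CTRL, and HK2, hexokinase 2, at 482, 318 and 263 CPM in EV and 119, 92.2 and 93.8 in CTRL. The 2 higher in CTRL were PKM and ALDOA, and ALDOA has 53.5% of its exon bases inside exons of other genes.

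Mesenchymal genes were mixed although 8 of 15 were higher in EV. FN1, fibronectin, stood at 2115, 1264 and 1867 CPM in EV and 452, 650.4 and 201 in CTRL, and LOX, which crosslinks collagen, at 618, 321 and 267 CPM in EV and 66, 89.2 and 64.4 in CTRL. MSN, the membrane-actin linker moesin, stood at 2557, 3051 and 1621 CPM in EV and 923, 920.3 and 789.8 in CTRL. CD44 was the 1 member higher in CTRL, and AXL, CDH11 and LOXL2 were among those not called. The list's median of 1.30 became 0.64 without EV replicate 1, 0.62 without EV replicate 3, 0.11 over genes with little exon overlap and 0.17 against SG1 and SG3.

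Luminal and epithelial genes did not follow a single direction either. SPDEF, an epithelial transcription factor, stood at 103, 64.2 and 96.7 CPM in EV and 0.829, 0.345 and 0.593 in CTRL, and AGR2, a protein folding enzyme of secretory epithelia, at 78.2, 51.4 and 35 CPM in EV and 0 in every CTRL library. KRT19 stood at 903, 782 and 926 CPM in EV and 383, 452 and 351 in CTRL. GATA3, by contrast, was higher in CTRL, at 9.11, 6.85 and 11.2 CPM in EV and 35.1, 30.8 and 30.5 in CTRL. Of 11 luminal genes kept, 4 were higher in EV and 3 in CTRL, and of 9 junction genes 4 and 2. The junction median was 0.41 and became -0.15 with median-of-ratios scaling. Among junction genes, CLDN7 stood at 99.3, 56.2 and 65.8 CPM in EV and 9.9, 13.4 and 5.33 in CTRL and the splicing factor ESRP2 at 7.31, 3.1 and 1.98 CPM in EV and 18.4, 19.8 and 15.9 in CTRL, the first higher in EV and the second in CTRL. SPDEF and AGR2 were also near 0 in KIF20A_OE, with means of 0.216 and 0.182.

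Of 21 matrix protease, inhibitor and plasminogen system genes, 9 were higher in EV, 1 in CTRL and 11 had no call. CST1, cystatin SN, an inhibitor of cysteine proteases, stood at 1314, 816 and 1951 CPM in EV and 22.2, 24.4 and 27.7 in CTRL, and its neighbour in the family CST4 at 177, 157 and 275 CPM in EV and 9.17, 11.6 and 7.53 in CTRL. Per exon length, CST1 reached 6662 ± 2799.5 TPM in EV and 125 ± 13.1 in CTRL. The family members share sequence, so the split of reads between them is uncertain. MMP14, a membrane-bound collagenase, stood at 2142, 1389 and 2143 CPM in EV and 743, 673 and 497 in CTRL, and PLAU, urokinase, at 659.8, 701 and 859 CPM in EV and 350.3, 320.2 and 284 in CTRL. The other plasminogen activator, PLAT, was higher in CTRL, at 189.7, 70.1 and 61.3 CPM in EV and 484, 618 and 322 in CTRL. MMP1 was called at 4.31, 94.1 and 70.4 CPM in EV and 2.88, 3.41 and 3.03 in CTRL, with EV replicate 1 close to CTRL.

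Matrix genes contained opposite extremes. THBS1, thrombospondin 1, which binds CD36 and CD47 and activates latent TGF-beta and was higher in CTRL, stood at 346, 214 and 367 CPM in EV and 3701, 3800.0 and 3579 in CTRL. COL12A1 was likewise higher in CTRL, at 67.7, 95.7 and 65.6 CPM in EV and 479.6, 375 and 405 in CTRL. On the EV side, TNC, tenascin C, stood at 522, 449 and 435 CPM in EV and 159.5, 142 and 64.2 in CTRL. Of 22 members, 6 were higher in EV and 2 in CTRL, against 17.0% and 9.29% of all genes. Among integrins, ITGA2, the collagen receptor chain, stood at 817, 646 and 661 CPM in EV and 216, 189 and 156 in CTRL, ITGB8 at 67.7, 45 and 80.2 CPM in EV and 2.07, 1.4 and 2.26 in CTRL and ITGA10 at 124, 42.1 and 244 CPM in EV and 0.561, 1.17 and 0.36 in CTRL. ITGAV, the partner of ITGB8, went the other way, at 148, 105 and 143 CPM in EV and 288, 304 and 316 in CTRL. ITGA3, TLN1, VCL and ITGB1 differed by at most 0.09 in log2.

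Of 25 AP-1 and immediate early genes, 10 were higher in EV, 2, FOSL2 and ATF3, were higher in CTRL and 13 had no call. The list includes phosphatases and adaptors that ERK induces and that restrain it. DUSP6 stood at 398, 399 and 524 CPM in EV and 91.7, 66.9 and 63 in CTRL, SPRY4 at 261, 297 and 344 CPM in EV and 101, 91.7 and 67.8 in CTRL and DUSP4 at 851, 719 and 623 CPM in EV and 283, 282 and 235 in CTRL. Their groups did not overlap, and the 3 genes had means of 71.1, 85.3 and 252 in SG1 and SG3, as in CTRL. In KIF20A_OE, DUSP6 was at a mean of 0.837 and SPRY4 at 0.448. FOSL1, a FOS family member, was not called, at 262, 409 and 352 CPM in EV and 624, 684 and 455 in CTRL, nor was PHLDA1, at 653, 744 and 749 CPM in EV and 704, 634 and 658 in CTRL.

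**Figure D3:**
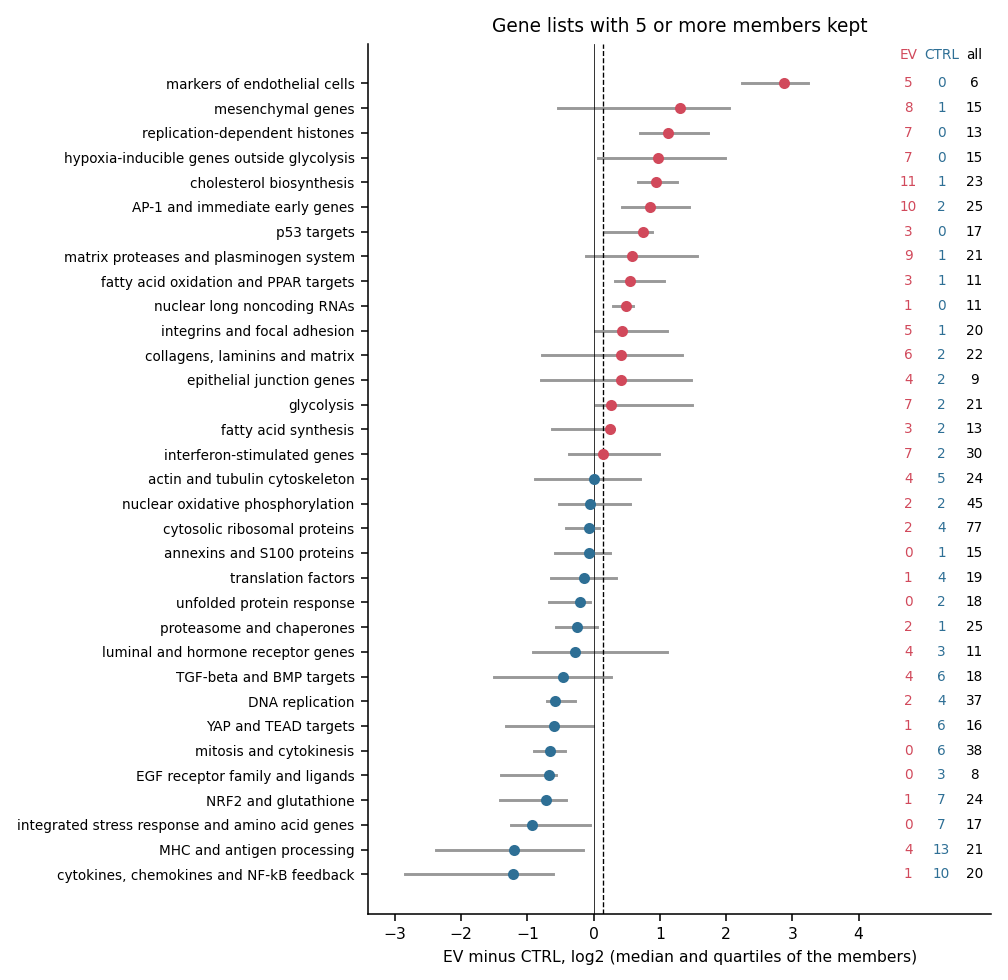
Difference of EV minus CTRL in log2 for gene lists with at least 5 members kept: points are medians, bars span the quartiles of the members, the dashed line is the median of all genes (0.14) and the columns give the members called higher in EV, higher in CTRL and kept. The cytokine and MHC lists lie lowest, at about the same median, and the endothelial list highest.

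Cytokine genes had a median on the CTRL side. Of 20 members kept, 10 were higher in CTRL and 1 in EV, with a median of -1.22, which was -0.91 over genes with at most 10% exon overlap and -2.58 when all libraries of each table were used. IL6 stood at 3, 0.66 and 1.05 CPM in EV and 59.6, 34.5 and 45.2 in CTRL and IL1A at 1.4, 0.406 and 1.92 CPM in EV and 45.2, 47.2 and 37.3 in CTRL. CXCL8, the neutrophil chemokine, stood at 29.2, 19.5 and 26.7 CPM in EV and 243, 169.6 and 194 in CTRL. No EV library reached a CTRL library for any of the 3. CXCL1 stood at 12.3, 2.84 and 17.4 CPM in EV and 86.2, 73.1 and 66 in CTRL, CXCL2 at 3.21, 6.7 and 6.37 CPM in EV and 41, 16.9 and 18.4 in CTRL and BIRC3, an inhibitor of apoptosis, at 52.5, 39.8 and 66.9 CPM in EV and 266, 199 and 229 in CTRL. The 1 member higher in EV was PTGS2, cyclooxygenase 2, at 45.5, 13 and 16.9 CPM in EV and 0.439, 0.345 and 0.0847 in CTRL.

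Several of these genes are known targets of NF-kB, whose binding sites in the promoter follow a short consensus. The kappa B consensus, a degenerate motif of 10 bases, was searched on both strands in the 250 bases before the start of each RefSeq gene (GRCh38.p14). It was present in 2614 of 27305 promoters, 9.57%. A rarer form, searched first, was stricter at some bases and looser at another. It was in 473, or 1.73%, and found the same numbers of listed genes. Promoters were found for 23 listed cytokine and feedback genes, and 12 held the motif. It was in 4 of the 9 found for members higher in CTRL, which are shown here with 30 bases on either side and the motif in capitals because they are the called members that hold it:
IL6 (chr7:22727097-22727166, plus strand): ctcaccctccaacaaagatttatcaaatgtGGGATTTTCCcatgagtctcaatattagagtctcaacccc
CXCL1 (chr4:73869284-73869353, plus strand): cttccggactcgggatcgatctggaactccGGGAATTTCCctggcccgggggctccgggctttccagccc
CXCL2 (chr4:74099234-74099303, minus strand): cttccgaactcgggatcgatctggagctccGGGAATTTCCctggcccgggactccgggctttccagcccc
BIRC3 (chr11:102317319-102317388, plus strand): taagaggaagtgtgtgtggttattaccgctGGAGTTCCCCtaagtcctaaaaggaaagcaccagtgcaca
BIRC3 held a second match farther from its start. In BIRC3 the match lies on the opposite strand and reads as its reverse complement here, in CXCL1 and CXCL2 a match on the other strand overlaps the one shown by all but 1 base, and CXCL1 and CXCL2 are paralogs with nearly the same letters in this window. The motif was also before genes without a call, such as NFKBIA and TNFAIP3, the inhibitors that NF-kB induces. The list was made to hold NF-kB feedback genes, so its 12 of 23 is not read against the 9.57% of all promoters. Members higher in CTRL, with 4 of 9, did not hold the motif more often than the list. NFKBIA stood at 128, 71.3 and 93.7 CPM in EV and 169, 155 and 153 in CTRL, and TNFAIP3 at 30, 22.6 and 21.9 CPM in EV and 37, 27.9 and 17.2 in CTRL. CXCL3, with the motif, was at 2.95, 3.81 and 4.02 CPM in EV and 11.8, 6.54 and 6.12 in CTRL, and CXCL8, without a match in the window, was higher in CTRL. For the sterol synthesis list, the motif TCACNCCAC, with N for any base, was searched in the same way. It was in 239 of 27305 promoters, 0.875%. Of 18 listed genes with a promoter 1 held it, and of the 7 found for members higher in EV also 1, SREBF2. A match is a description and not a bound site.

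Antigen presentation genes lay mostly on the CTRL side, with 13 of 21 higher in CTRL and 4 in EV. All 8 genes of the class II pathway that were kept were higher in CTRL, with a median of -2.57. CD74, the invariant chain, stood at 174, 165 and 237 CPM in EV and 824, 868 and 554 in CTRL, and HLA-DRA at 1.7, 1.98 and 11.8 CPM in EV and 70.3, 70.7 and 67.7 in CTRL. CIITA, the transactivator of class II genes, stood at 17.4, 22.1 and 18.9 CPM in EV and 75.1, 39.9 and 31.7 in CTRL. Its difference of -1.20 became -0.85 without CTRL replicate 1. For HLA-DRA, HLA-DRB1 and HLA-DPA1, EV replicate 3 was the highest of its group and remained below every CTRL library.

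Class I heavy chains lay on both sides. HLA-C stood at 477, 262 and 367 CPM in EV and 56.3, 68.3 and 43.6 in CTRL and HLA-E at 722, 458 and 532 CPM in EV and 183, 198 and 99.1 in CTRL, both higher in EV. HLA-B, at 402, 228 and 406 CPM in EV and 623, 781 and 474 in CTRL, lay higher in every CTRL library and was not called, and HLA-F, at 0, 0.102 and 1.36 CPM in EV and 7.61, 9.32 and 3.15 in CTRL, was called for CTRL. HLA genes are polymorphic and share sequence, so the split of reads between them is uncertain. B2M, the light chain of every class I molecule (ENSG00000166710.21, chromosome 15, 44711487 to 44718877, plus strand), differed by -7.96 in log2, at 1.6, 1.83 and 1.79 CPM in EV and 581, 713 and 765 in CTRL. It was at 0.46, 0.614 and 0.617 in KIF20A_OE and at a mean of 695 in SG1 and SG3. So B2M was near 0 in all 6 libraries of the FPM table, including those that stand apart from EV, and high in all 9 of the count table. Whether the table or the cells set that value cannot be told apart. Interferon-stimulated genes were not set apart, with 7 of 30 higher in EV and 2 in CTRL and a median of 0.14, equal to that of all genes and -0.04 with median-of-ratios scaling. MX1, a call for CTRL, stood at 0.601, 0.0508 and 1.55 CPM in EV and 21.9, 19.8 and 18.1 in CTRL.

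Redox genes under NRF2, the transcription factor released by oxidative stress, had a median on the CTRL side. Of 24, 7 were higher in CTRL and 1, HMOX1, in EV, with a median of -0.72. TXNRD1, thioredoxin reductase, stood at 376, 386 and 299 CPM in EV and 1374, 1602 and 1482 in CTRL. NQO1, a quinone reductase, stood at 39.8, 34.7 and 28.9 CPM in EV and 191, 166 and 207 in CTRL. GCLM, a subunit of the glutathione-synthesising ligase, stood at 33.8, 41.4 and 30.5 CPM in EV and 121, 111 and 160.4 in CTRL. In these 3 genes the lowest CTRL library was more than 2 times the highest EV library. SLC7A11, which imports cystine, stood at 27.2, 42.7 and 15.5 CPM in EV and 89.7, 78.4 and 83.6 in CTRL, and HMOX1, heme oxygenase 1, at 98.2, 22.4 and 45 CPM in EV and 16.7, 14.3 and 11.9 in CTRL.

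Amino acid transport and synthesis genes, targets of ATF4, were called for CTRL in 7 of 17 cases and for EV in none, with a median of -0.93. That median was -0.45 with SG1 and SG3 in place of CTRL and 0.21 when all libraries of each table were used. SLC7A5, the large neutral amino acid transporter, stood at 214, 178 and 124 CPM in EV and 906, 995 and 942 in CTRL, and its partner SLC3A2 at 137, 139 and 105 CPM in EV and 303, 317 and 325 in CTRL. PSAT1, of serine synthesis, stood at 46.3, 78.1 and 40 CPM in EV and 165, 242 and 282 in CTRL. Both transporter chains were higher in every CTRL library. PHGDH, which starts the same pathway, spread from 0.1 to 20.6 within EV and stood at 0.1, 1.93 and 20.6 CPM in EV and 5.81, 6.67 and 6.35 in CTRL.

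**Figure D4:**
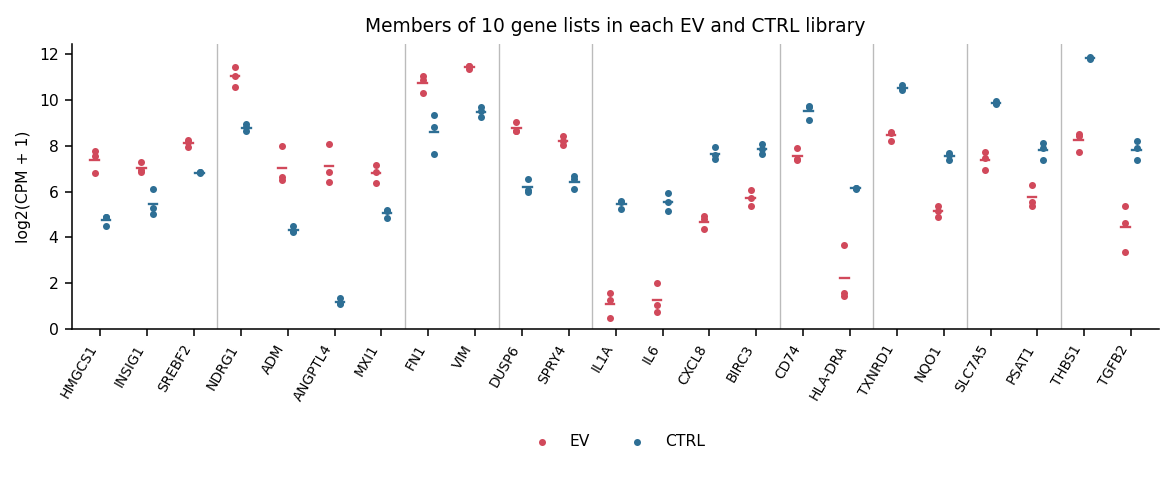
Level of 23 members of 10 gene lists in each EV and CTRL library, as log2(CPM + 1). Points are libraries and bars are group means. The 11 genes from HMGCS1 to SPRY4 are higher in EV and the 12 from IL1A to TGFB2 higher in CTRL. All were picked from called members, so the lack of overlap between groups follows from the choice.

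Targets of YAP and TEAD, the transcription factors of cell contact and spreading, were higher in CTRL in 6 of 16 cases and in EV in 1. CCN1 stood at 572, 803 and 503 CPM in EV and 1533, 1449 and 1239 in CTRL, ANKRD1 at 97.4, 77.6 and 73.8 CPM in EV and 172, 187 and 237 in CTRL and AJUBA at 126, 109 and 92.7 CPM in EV and 299, 325 and 338 in CTRL. The 1 opposite member was CCN2, a close relative of CCN1, at 515, 857 and 863 CPM in EV and 186, 118 and 159 in CTRL. In the TGF-beta list 6 of 18 were higher in CTRL and 4 in EV. The ligand TGFB2 stood at 40.3, 9.19 and 24.1 CPM in EV and 168, 236 and 294 in CTRL, and TGFB1 at 432, 318 and 327 CPM in EV and 152, 186 and 137 in CTRL. The receptor TGFBR2 was higher in EV, at 659.6, 588 and 617 CPM in EV and 196, 188 and 198 in CTRL, and so was PMEPA1, a target gene, at 584, 249 and 541 CPM in EV and 78.4, 97 and 61.4 in CTRL. ID1, a target of BMP signalling, was higher in CTRL, at 18, 19.9 and 70.3 CPM in EV and 135, 154 and 167 in CTRL. CCN1 and CCN2, and TGFB2 and TGFB1, thus lay on opposite sides.

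Genes of cell division were shifted a little and together. Of 38 mitosis genes, 36 had a difference below 0, 6 were called for CTRL and 0 for EV, and the median was -0.65. Over all genes the median was 0.14 and the lower quartile -0.36, and genes over 100 CPM had a median of -0.05. BUB1, a spindle checkpoint kinase, stood at 91.7, 143 and 116 CPM in EV and 298, 330.4 and 389 in CTRL, and CCNA2, cyclin A2, at 73.2, 129 and 158 CPM in EV and 281, 311 and 344 in CTRL. EV replicate 1 was the lowest EV library for both. The median of the mitosis genes was -0.51 without EV replicate 1 and -0.86 without EV replicate 2. DNA replication genes had a median of -0.58, or 0.21 when all libraries of each table were used. Of 37, 4 were called for CTRL and 2 for EV, against 9.29% and 17.0% of all genes. PCNA, the sliding clamp, was not called, at 166, 236 and 188 CPM in EV and 239, 256 and 323 in CTRL.

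Of 13 replication-dependent histone genes kept, whose main transcripts lack a poly(A) tail, 7 were higher in EV and 0 in CTRL, with a median of 1.12. That median was 0.61 against SG1 and SG3 and 0.08 without the filter on low levels. H2BC12 stood at 64.2, 60.8 and 72.5 CPM in EV and 22.2, 18.7 and 16.8 in CTRL. p53 targets had 3 of 17 higher in EV and 0 in CTRL, against 17.0% and 9.29% of all genes. CDKN1A, the p21 inhibitor, was uncalled at 171, 145 and 255 CPM in EV and 144, 131 and 70.7 in CTRL. Fatty acid oxidation genes had 3 of 11 in EV and 1 in CTRL, and nuclear long noncoding RNAs 1 of 11 and 0. EGF family ligands and receptors had 0 of 8 in EV and 3 in CTRL. Of these, EREG, epiregulin, stood at 21.6, 7.72 and 40.2 CPM in EV and 64.7, 45.2 and 43.8 in CTRL, and its difference of -1.35 became -0.75 without EV replicate 2.

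Chaperones and proteasome genes had 2 of 25 higher in EV and 1 in CTRL, the 2 being HSPA1A and HSPA1B, near-identical copies whose reads cannot be split with certainty. Translation factors had 1 of 19 in EV and 4 in CTRL, annexins and S100 proteins 0 of 15 and 1, and basal keratins 0 of 4 and 0. Cytoskeletal genes had 4 of 24 in EV and 5 in CTRL, against 17.0% and 9.29% of all genes. Their median of 0.00 became -0.20 with median-of-ratios scaling. The 1 neural or erythroid marker kept had no call, and no 9p21 gene or other transcript without a poly(A) tail passed the filter.

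The 15 libraries allow each call to be read across both tables. Of the 2193 genes higher in EV, 1428 (65.1%) were higher in all 6 libraries of the FPM table than in all 9 of the count table, against 19.4% of all genes; of the 1196 higher in CTRL, 734 (61.4%) were higher in all 9, against 9.97%. A call already fixes the order of 3 of the 6 and 3 of the 9 libraries, so nothing is read from these shares against those of all genes. In 999 of the 2193 (45.6%), EV stood above all 12 other libraries, KIF20A_OE included, and in 604 of the 1196 (50.5%) below all 12. A call fixes the order of EV and the 3 CTRL libraries among those 12. The share over all genes was not computed for this, so nothing is read from these counts either.

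SLC25A6, a mitochondrial ADP/ATP carrier (ENSG00000169100.14, chromosome X, 1386152 to 1392724, minus strand), was at 219, 265 and 206 CPM in EV and 0 in every CTRL library, at least 10314-fold higher in EV over a floor of 3 counts in the CTRL group together. That bound depends on what a count stands for. The KIF20A_OE mean of SLC25A6 was 763, and no SG library had a count. VAMP7, a vesicle fusion protein also in the pseudoautosomal region, was at 94.7, 107 and 60.5 CPM in EV and 0 in every CTRL library. DDX39B, an RNA helicase, stood at 236, 202 and 241 CPM in EV and 5.12, 1.81 and 1.59 in CTRL, and SOX4, a transcription factor, at 264, 97.6 and 306 CPM in EV and 0, 0.173 and 0 in CTRL. In total 54 genes had a mean of at least 10 CPM in EV and no count in CTRL. Of these, 39 had no count in any of the 9 libraries of the count table, 27 had over 50% of their exon bases inside exons of other genes, and 9 have a second copy listed on the Y pseudoautosomal region. Only 2 genes had at least 10 in CTRL and no fragment in EV. Every gene of the FPM table had at least 7 fragments over its 6 libraries. A gene without fragments in all of them thus could not be in the shared set, and the 54 and the 2 are not compared.

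On the CTRL side, CYP1B1, a cytochrome P450 that the aryl hydrocarbon receptor induces (ENSG00000138061.12, chromosome 2, 38066973 to 38109902, minus strand), was at 0.401, 0.203 and 0.309 CPM in EV and 445, 524 and 441 in CTRL. H3-3B, which encodes histone H3.3, was at 0.751, 1.02 and 0.804 CPM in EV and 437, 412 and 478 in CTRL. C3, the central complement component, was at 0.25, 0.102 and 3.03 CPM in EV and 377, 387 and 269 in CTRL, and MGST1, a microsomal glutathione transferase, at 0.3, 0.203 and 0.124 CPM in EV and 94.4, 103 and 149.9 in CTRL. All 4 were at a mean of 0.335 to 3.44 in KIF20A_OE. H3-3B is used by nearly every cell, and its level near 1 CPM in all EV libraries is given as listed. TP53I11, also higher in CTRL at 0, 0 and 1.48 CPM in EV and 100.2, 111 and 57.8 in CTRL, differed from these in having a KIF20A_OE mean of 82.6.

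Exon overlap between genes went with the calls. A read inside exons of 2 genes can be counted for one, both or neither, and no source used here gives the rule of either table. Among 91 genes with over 90% of their exon bases in exons of another gene, 83 were higher in EV and 1 in CTRL, and the same number, 83, were higher in all 6 libraries of the FPM table. From 50 to 90% overlap, 146 of 292 were higher in EV. With no overlap, 13.9% of 6432 genes were higher in EV and 10.8% in CTRL. Readthrough genes such as RPL17-C18orf32, at 242, 258 and 190.1 CPM in EV and 0 in every CTRL library, and ATP6V1G2-DDX39B, at 109, 117 and 124 CPM in EV and 0 in every CTRL library, are wholly covered by exons of others. Over genes with at most 10% overlap, 1527 were higher in EV and 1018 in CTRL.

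**Figure D5:**
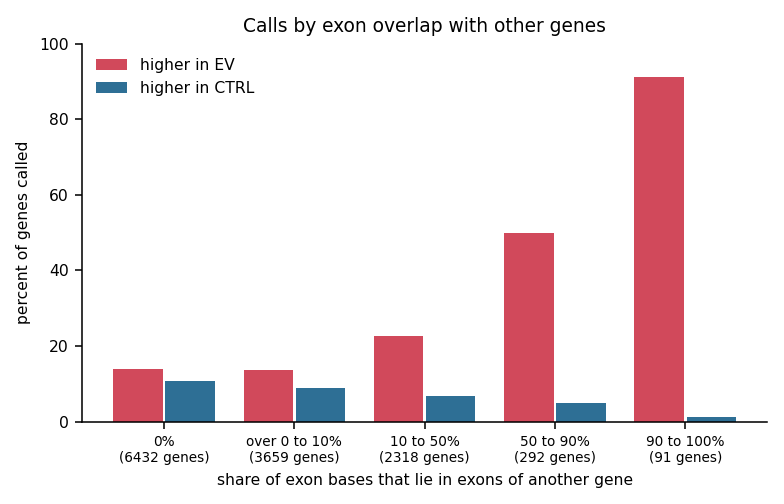
Percent of genes called higher in EV (red) or in CTRL (blue), by the share of a gene's exon bases that lie in exons of another gene, with the number of genes under each pair of bars. The EV share goes from 13.9% without overlap to 91.2% above 90% overlap.

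Gene type and length moved with the calls as well. Of 521 antisense RNAs, 40.1% were higher in EV and 5.76% in CTRL, against 14.5% and 9.51% of protein-coding genes, and of 696 genes with 1 exon, 35.2% and 5.03%. Genes under 3 CPM were called for EV in 30.1% of cases, and genes over 100 CPM in 7.95% and for CTRL in 7.6%. The parts played by overlap, type and level were not tested apart.

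The rule leaves out genes whose ID or version is in only 1 table. The count table held 37817 such genes, with 5.83 to 7.97% of CTRL counts. Another 958 were found in FPM values alone, with 4.78 to 4.94% of EV fragments. Of genes without a partner under any version, 363 had a mean of at least 1 CPM in CTRL and 3 in EV. The rule thus leaves out more genes expressed in CTRL, and the balance of calls does not cover them. SAA1, among those left out, was at 406, 351 and 153 CPM of all counts in CTRL. None of the 13 mitochondrially encoded mRNAs is in the FPM table. MT-CO1, of cytochrome c oxidase, was at 6145, 2686 and 2392 CPM of all counts in CTRL, and mitochondrial genes took 1.13 to 2.84% of CTRL counts. For 948 genes the same ID carried a higher version in the FPM table, and 671 of these passed the filter when versions were ignored: 103 were higher in EV, 62 in CTRL and 506 had no call. EGFR stood at 478, 611 and 446 CPM in EV and 436, 431 and 358 in CTRL, and LMNA, lamin A/C, at 1037, 947 and 947 CPM in EV and 1175, 1218 and 784 in CTRL, both without a call. IGFBP3, which binds insulin-like growth factors, stood at 1046, 880.2 and 517 CPM in EV and 60.9, 67.5 and 83.7 in CTRL, a call for EV.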

How the data were processed

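RNA-seq libraries of MDA-MB231 were read from 2 tables. Per the submitters' processing notes, reads were handled with Trim Galore 0.6.4, STAR 2.7.3a, featureCounts and Subread 1.6.3 on hg38, and limma 3.50.3 is named. The authors deposited raw read counts per gene for CTRL, SG1 and SG3. For EV and KIF20A_OE the authors deposited fragments per 1000000 (FPM, a CPM unit), which the labels call FPKM; each column summed to 1000000, and 100% of values were whole multiples of 1 fragment within 0.001. No source used here gives the annotation release or how either table treated overlapping genes or strand.

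Gene IDs with the same version in both tables (22834 of 60651 and 23792) were used, and each library was rescaled to 1000000 over them. Differences are EV minus CTRL in mean log2(CPM + 1) over genes with a mean of at least 1. No test was run, since the tables were processed separately; a count test on the recovered fragments was left out for the same reason. Exon length, overlap and gene type came from GENCODE 29 (97.3% of shared IDs), promoters from RefSeq. Python 3.11.15, numpy 2.4.6, pandas 2.3.3, scipy 1.17.1 and matplotlib 3.10.9 were used, and the procedure was checked on simulated data.

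Genes named were KIF20A, the 25 of highest level per length, the 15 largest called protein-coding differences per direction with a mean of at least 10 in the higher group, and up to 3 called members per direction and up to 2 of highest level of each list. Other list members were named after their values were seen. Members and lists were chosen with earlier results of these data known. Alternatives varied scaling, pseudocount, filter, fold, overlap between groups, ID matching, gene type and libraries. Columns of per-sample values with no sample numbered 0. Some genes that the rule names are not reported here.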

Additional observations from a re-analysis of the deposited data

How the results depend on the processing

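Calls depended mainly on the size and level required. With a pseudocount of 5, 1259 genes were higher in EV. With a mean of at least 10 required, 1142 were higher in EV and 792 in CTRL. At 1.5-fold the counts were 3497 and 2138, and at 4-fold 749 and 381. Leaving out each library in turn gave 2046 to 2428 in EV and 1174 to 1341 in CTRL. In 2 alternatives chosen after seeing the data, genes with at most 10% exon overlap gave 1527 and 1018, and SG1 and SG3 in place of CTRL gave 2051 and 1256. Of 162 called genes among those named by rule, 156 kept their sign in every alternative that held them; of 21 alternatives, the limits on exon overlap and on gene type leave some of them out. The other 6 changed sign when all libraries of each table were used, KIF20A_OE included: KRT19 (-3.56), DUSP6 (-1.35), ATF3 (1.46), FN1 (-0.74), CCN2 (-0.10) and TGFBR2 (-0.82). The cause was not tested. A kept sign is no added support, since all 162 were called for a difference of at least 2-fold. Alternatives of filter, fold and overlap between groups leave a gene's difference as it was. Genes near the EV floor of 0.150 to 0.186 CPM are limited by depth. How far EV and CTRL differ in depth is uncertain, since fragments and counts may differ in unit. No paired analysis was possible because the result comes from no test and the tables were processed separately.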
